A study of Mus musculus with 60 samples.

Results

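Arc, the activity-regulated cytoskeleton-associated gene, was followed across the cortex of 59 mice that had been sleep deprived, allowed recovery sleep or left undisturbed. Every probeset that the platform annotation maps to Arc was taken, which gave 1 probeset (17317983) of the 41345 on the array, and 1 gene of the 18386 genes that the kept probesets name. Each mouse had its own Affymetrix Mouse Gene ST array, and the values are log2 intensities after robust multi-array average (RMA), so that a difference of 1 is a doubling. All mice were male C57BL/6J, an inbred laboratory strain, aged 2 months, and the left cortex was taken. In SD, mice (n = 7) were kept awake by gentle brushing for 6 h after lights on and killed at ZT6, where ZT counts hours after lights on. In the recovery groups the mice were then left to sleep. RS2 (n = 4, ZT8) had been kept awake for 6 h and then had 2 h in which to sleep. For RS3 (n = 7, ZT8) these times were 5 h and 3 h, and for RS6 (n = 7, ZT11) 5 h and 6 h. The authors state that sleep was not measured by EEG in these mice. Undisturbed mice of the same strain were killed at ZT0 (CC0), ZT6 (CC6), ZT8 (CC8) and ZT11 (CC11), with 7 mice each, and at ZT7 (CC7), with 6 mice. The length of sleep deprivation therefore differs between SD or RS2 and RS3 or RS6, and RS2 and RS3 share the CC8 mice. Handling without loss of sleep was not a separate group, so brushing and time awake cannot be told apart.

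Arc is an immediate early gene: synaptic activity switches on its transcription within minutes, without new protein synthesis, through calcium and MAP kinase signalling and the transcription factors CREB, SRF and MEF2. Its mRNA travels into dendrites and is translated near active synapses, where the protein takes part in the removal of AMPA receptors from the membrane, and the mRNA and the protein are both short-lived. Arc protein descends from a retrotransposon Gag protein and can form capsids, and in the cortex Arc is found mostly in excitatory neurons and is widely used as a marker of recent activity.

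The arrays were comparable in the share of probesets with a log2 value over 4, from 78.1% to 81.1% of each array. In 5 arrays (SD mice 1 and 2, and mouse 1 of CC0, RS6 and CC8) the small nucleolar RNAs stood above their group means. Their median deviations were 0.49 to 1.36, against -0.36 to 0.26 in the other arrays. On the main axis of variation (first principal component, 26.9% of the variance) these 5 lay at -136, -51, -106, -43 and -30, in that order. The other arrays lay at -13 to 22. In CC0 mouse 1 and SD mouse 1 the endothelial markers averaged 6.53 and 7.00 and the astrocyte markers 8.43 and 8.74. The group means, which include these mice, were 7.74 and 7.70, and 9.27 and 9.31. Of the 5 mice whose arrays stand apart, 4 were above their group's mean for Arc. Group differences of Arc that move by over 1.5 times or lose their call without these arrays are given with and without them. Markers of excitatory neurons averaged 10.23 to 10.44 over the groups. The 7 striatal markers, measured as a check on the dissection, averaged 8.61 (SD) to 9.38 (CC11). Since levels are relative, these means do not show how much striatal tissue the samples held. In SD mice 0 of 7 striatal markers passed the test against CC6, and 0 had an unadjusted p under 0.05 (limma), with a median log2 fold change of -0.22 and all 7 below 0. Of all probesets, 1.93% passed and 15.9% had an unadjusted p under 0.05 in this comparison. Of 35 markers of other cell types and regions, 2 passed in SD. These were 1 of 5 oligodendrocyte markers and 1 of 5 microglial markers, both lower. The medians of these lists were -0.17 and 0.03, and 3 of the 5 microglial markers were above 0. The part of these markers in the Arc results was not tested. In bulk tissue, a change in the number of cells that express Arc and a change in Arc RNA per cell cannot be told apart.

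Arc was highest in SD, followed by CC0, and lay lower and close together in the other 7 groups. In SD the lowest, median and highest mouse had log2 values of 10.06, 10.26 and 10.93 (10.40 ± 0.33, mean ± SD, n = 7, and 10.22 ± 0.117 in the 5 mice left without the arrays that stand apart). CC0 mice had 8.59, 9.87 and 10.83 (9.90 ± 0.83, n = 7), so that the highest CC0 mice were at the level of SD and the lowest CC0 mouse was at that of later hours. In CC6 the values were 8.15, 8.43 and 9.71 (8.68 ± 0.61, n = 7). CC8 had 7.59, 8.52 and 9.25 (8.46 ± 0.60, n = 7), and CC7 had 8.05, 8.51 and 8.87 (8.45 ± 0.32, n = 6). In CC11 they were 8.00, 8.37 and 8.85 (8.39 ± 0.30, n = 7). The recovery groups came last in the order of means: RS6 had 7.75, 8.09 and 8.94 (8.26 ± 0.41, n = 7) and RS3 had 7.69, 8.05 and 9.07 (8.22 ± 0.50, n = 7). The 4 RS2 mice had 7.95, 8.00, 8.31 and 8.41 (8.17 ± 0.23). Of the 8 pairs of neighbours in this order, CC0 and CC6 was the pair that differed past the threshold, and the adjusted p of the 7 other pairs lay between 0.58 and 1.0 (limma).

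**Figure D1:**
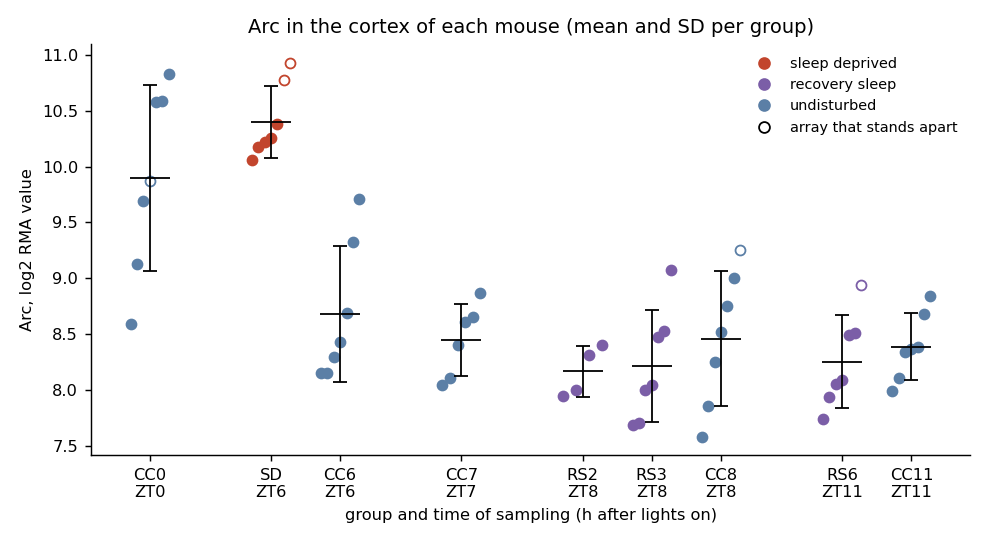
Arc in each mouse, as a log2 RMA value, by group and time of sampling, with sleep-deprived mice in red, recovery mice in purple and undisturbed mice in blue; the bar and whiskers are the mean and SD, and open circles are the 5 arrays that stand apart. All 7 SD mice lie above all 7 CC6 mice, CC0 spans 8.59 to 10.83, and the recovery groups overlap their undisturbed groups.

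The first comparison was of sleep deprivation with undisturbed mice of the same hour. Arc was higher in SD than in CC6 in every mouse: the lowest SD mouse (10.06) was above the highest CC6 mouse (9.71). With 6 factors of unwanted variation in the fit (RUV), the log2 fold change was 1.47 (SE 0.25, 95% interval 0.96 to 1.98), a 2.76-fold increase, with an adjusted p of 0.00013 (limma, Benjamini-Hochberg over 32819 probesets, threshold FDR under 0.01). This was the largest increase of the 32819 probesets, of which 1.93% passed in either direction and 1.09% as higher. On the RMA values without RUV the difference was 1.72, and the exact two-sided permutation test gave p = 0.000583, the smallest it can give with 7 mice against 7. Values of the groups did not overlap for Arc, as for 0.905% of probesets with every SD value above every CC6 value. Without the 5 arrays the RMA difference was 1.54, and all 5 remaining SD mice were above the CC6 mice (exact permutation p = 0.0025).

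During recovery sleep Arc was not distinguishable from the undisturbed mice of the same hour, with estimates below 0 in all 3 groups. The 4 RS2 mice (7.95 to 8.41) lay within the range of CC8 (7.59 to 9.25), and the log2 fold change was -0.32 (95% interval -0.89 to 0.25, adjusted p = 0.77, limma). For RS3 against the same CC8 mice it was -0.30 (95% interval -0.79 to 0.18, adjusted p = 0.69). For RS6 against CC11 it was -0.34 (95% interval -0.84 to 0.16, adjusted p = 0.58), with 2 of 7 RS6 mice below the lowest CC11 mouse and 1 above the highest. Of all probesets, 0.299%, 0.171% and 0.149% passed in RS2, RS3 and RS6, in that order. The upper bounds of the 3 intervals were 0.25, 0.18 and 0.16, and 0.33, 0.29 and 0.40 without RUV, so that an increase of the size seen in SD lay outside each of them. Of the 7 striatal markers, 7 were below 0 in RS2 (median -0.39) and in RS6 (median -0.38). In RS2 4 and in RS6 5 had an unadjusted p under 0.05 (limma), beside 10.5% and 14.1% of all probesets. In RS3 5 of the 7 were above 0 (median 0.04), and 0 had an unadjusted p under 0.05, beside 11.7% of all probesets. In each comparison 0 of the 7 striatal markers passed. Their part in the Arc values was not tested. Of the 35 other markers 0 passed in these 3 comparisons. On the RMA values the differences were -0.29, -0.24 and -0.14 in the order RS2, RS3 and RS6, with exact permutation p-values of 0.38, 0.42 and 0.49. Without the 5 arrays they were -0.16, -0.11 and -0.25, with p-values of 0.59, 0.70 and 0.17.

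Set against SD itself, Arc was lower in all 3 recovery groups, with no overlap of the mice. All 4 RS2 mice were below all 7 SD mice, and the log2 fold change was -1.95 (SE 0.30, adjusted p = 0.00011, limma). In RS3 it was -1.93 (SE 0.26, adjusted p = 2.2e-06) and in RS6 -1.92 (SE 0.26, adjusted p = 8.6e-07), so that Arc was at 0.26 of its SD level in each. Arc had the largest decrease of all 32819 probesets in each of these comparisons, in which 0.338%, 1.24% and 2.81% of probesets passed. Every SD value was above every value of RS2, RS3 and RS6 for 1.6%, 0.92% and 0.57% of probesets. These 3 comparisons share the SD mice and differ in time of day, and in RS3 and RS6 the sleep deprivation was also 1 h shorter. Exact permutation p-values of the RMA values were 0.0061 for RS2, the smallest that 4 mice against 7 allow, and 0.000583 for RS3 and RS6.

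The difference of each recovery effect from the sleep deprivation effect takes out the time of day. It does not take out the length of sleep deprivation, which was 5 h in RS3 and RS6 and 6 h in SD and RS2. For RS3 it was -1.77 (SE 0.35, adjusted p = 0.0051, limma) and for RS6 -1.80 (SE 0.35, adjusted p = 0.0011), where 0.207% and 1.03% of probesets passed. For RS2, with 4 mice, it was of the same size (-1.79, SE 0.38) but missed the threshold (adjusted p = 0.027, against 0.0518% of probesets that passed). Without the 5 arrays the RS3 difference was -1.62 and no longer passed (adjusted p = 0.025).

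**Figure D2:**
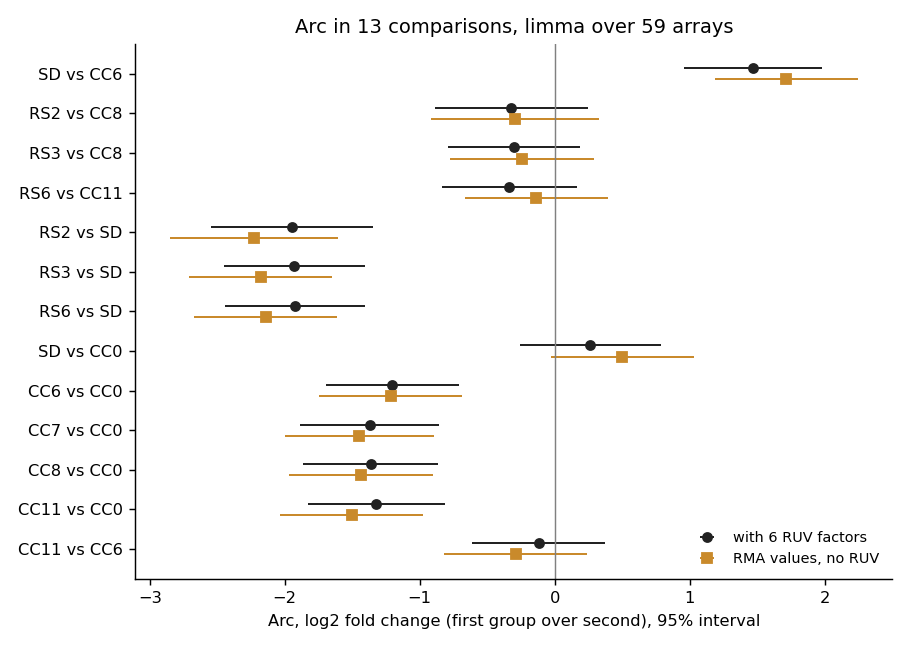
Log2 fold change of Arc in 13 comparisons, first group over second, with 95% intervals, from limma over 59 arrays with 6 RUV factors (black circles) and without RUV (orange squares). SD stands above CC6, the recovery groups lie near 0 against their undisturbed groups and near -2 against SD, and CC6 to CC11 lie below CC0.

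Undisturbed mice also differed over the light phase. Arc was lower at each later hour than at lights on, and the differences between these later hours were within their error. Against CC0, the log2 fold change was -1.20 in CC6 (SE 0.25, adjusted p = 0.0086, limma), -1.37 in CC7 (SE 0.26, adjusted p = 0.0016), -1.36 in CC8 (SE 0.25, adjusted p = 0.00075) and -1.32 in CC11 (SE 0.25, adjusted p = 0.0009). Of all probesets 0.158%, 0.408%, 0.615% and 0.975% passed in these 4 comparisons, which share the CC0 mice. Arc had the largest decrease of all probesets in CC8 and the second largest in each of the others. The groups overlapped in all 4: 4 of 7 CC0 mice were above every CC6 mouse, 6 above every CC7 mouse, 5 above every CC8 mouse and 6 above every CC11 mouse. The difference of CC6 from CC0 did not pass without RUV (adjusted p = 0.035) nor by the exact permutation test at the same threshold (p = 0.013), and leaving out the 5 arrays gave an adjusted p of 0.011. From CC6 to CC11 the difference was small against its error, at -0.12 for CC11 over CC6 (95% interval -0.61 to 0.37, adjusted p = 0.88, with 0.265% of probesets passing). Without RUV it was -0.29 and without the 5 arrays -0.023, and neither passed.

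Some markers of cell types also differed over the same hours. Mean striatal markers were 8.92 in CC0, 8.81 in CC6, 9.19 in CC7, 9.18 in CC8 and 9.38 in CC11. Of the 35 other markers, 0 passed in CC6 against CC0 and 1 in CC7, an endothelial marker that was lower. In CC8 against CC0, 1 of 4 excitatory neuron markers (-0.26) and 1 of 5 endothelial markers (-0.44) were lower. Of 5 oligodendrocyte markers 1 (0.27) was higher. The medians of these lists were -0.02, -0.09 and 0.13, in that order. In CC11 against CC0, 1 of 4 excitatory neuron markers (-0.41) and 3 of 5 endothelial markers were lower, and all 4 excitatory neuron markers were below 0, with a median of -0.08. Against CC6, 1 excitatory neuron marker and 2 endothelial markers were lower in CC11. Of all probesets, 0.158%, 0.408%, 0.615% and 0.975% passed in CC6, CC7, CC8 and CC11 against CC0. In CC11 against CC6 the share was 0.265%. Means of the excitatory neuron markers were 10.40 in CC6, 10.29 in CC7, 10.31 in CC8 and 10.23 in CC11, against 10.41 in CC0. The part of these markers in the Arc differences was not tested.

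The level after 6 h of sleep deprivation was also set beside that at lights on, when nocturnal mice end their active phase. Arc was 0.26 higher in SD than in CC0 on the log2 scale (95% interval -0.26 to 0.79, adjusted p = 0.80, limma; 0.174% of probesets passed), and 1 of 7 SD mice was above the highest CC0 mouse. Without RUV the difference was 0.50 (95% interval -0.03 to 1.03, adjusted p = 0.34, and exact permutation p = 0.17 on the RMA values). Without the 5 arrays it was 0.147 with RUV and 0.32 without, and neither passed (adjusted p = 0.94 and 0.82). The size of this difference therefore depends on the processing. The SD of Arc was 0.33 in SD mice and 0.83 in CC0 mice, and 0.117 and 0.91 without the 5 arrays; whether the spread differed was not tested for this pair.

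Arc varied widely between mice that had been treated alike. Its pooled SD within the 5 undisturbed groups (34 mice) was 0.58 on the log2 scale, against a median of 0.195 over all 32819 probesets, and 904 probesets had a larger one, which puts Arc at the 97.2 percentile. Among the 8213 probesets with a mean log2 value over 8, 26 had a larger SD than Arc. With the RUV factors taken out, the pooled SD of Arc was 0.51. The range within a group was 2.23 in CC0, a 4.7-fold difference between the lowest and the highest mouse, and 1.56 in CC6 and 1.66 in CC8, against 0.82 in CC7 and 0.85 in CC11.

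Whether the treated groups differed in this spread from the undisturbed mice was tested on the mean absolute deviation from the group median. It was 0.23 in SD and 0.45 in CC6 (exact two-sided permutation p = 0.33), 0.19 in RS2 and 0.47 in CC8 (p = 0.13), 0.38 in RS3 and 0.47 in CC8 (p = 0.61), and 0.32 in RS6 and 0.21 in CC11 (p = 0.45). After Benjamini-Hochberg adjustment over these 4 comparisons the p-values were between 0.53 and 0.61. With 4 to 7 mice a group these tests have little power.

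**Figure D3:**
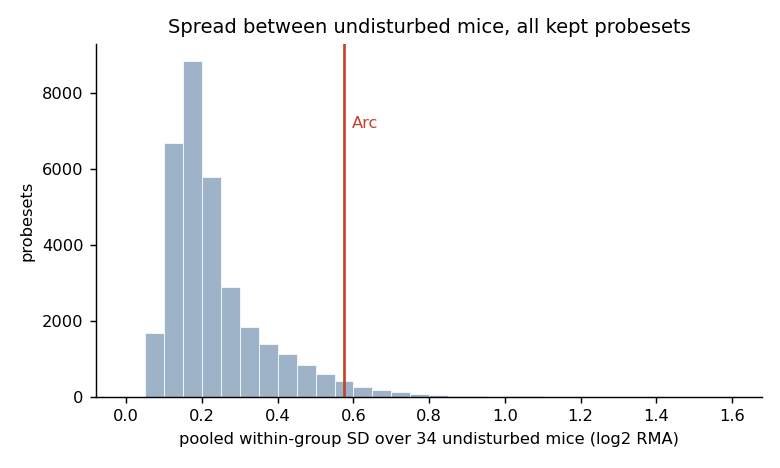
Number of kept probesets by their pooled within-group SD over the 34 undisturbed mice, on the log2 RMA scale, with Arc marked by the red line. Arc, at 0.58, lies in the upper tail, above the median of 0.195.

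Genes that varied with Arc from mouse to mouse were looked for among 19493 probesets with a single gene symbol. The measure was Pearson's r between deviations from the group mean over the 34 undisturbed mice, all on the RMA scale without RUV. The 10 highest were Nr4a1 (0.92), Fos (0.88), Mir212 (0.85), Dusp1 (0.85), Egr1 (0.83), Ier2 (0.80), Ccn1 (0.78), Egr2 (0.78), Junb (0.74) and Trib1 (0.74). The median over all probesets was -0.015, and 16 probesets were over 0.7. Nr4a1 (a nuclear receptor), Fos, Egr1, Egr2 and Junb are transcription factors of the immediate early class, Dusp1 encodes a phosphatase that switches off MAP kinases, Ccn1 a secreted matrix protein and Mir212 a microRNA that CREB induces in neurons. Since these genes were picked for their r, no p is given. Spearman's rho was 0.93 for Nr4a1, 0.87 for Fos, 0.86 for Mir212 and 0.84 for Dusp1, and without the 2 mice farthest from the median of Arc, r was 0.89, 0.85, 0.79 and 0.81 in the same order. Leaving out the CC0 mice gave 0.87, 0.82, 0.86 and 0.79. Lowest were AU041133 (-0.63), Dipk2a (-0.59) and Zbtb25 (-0.59).

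Over the log2 values of all 59 arrays, where differences between groups enter as well, the 10 highest r were those of Nr4a1 (0.96), Fos (0.93), Egr1 (0.93), Mir212 (0.93), Plk3 (0.89), Dusp1 (0.89), Klf10 (0.89), Dusp6 (0.89), Midn (0.89) and Egr2 (0.88), and 6 of these genes were also in the list from undisturbed mice. Klf10 encodes a transcription factor, Dusp6 another MAP kinase phosphatase and Plk3 a protein kinase.

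**Figure D4:**
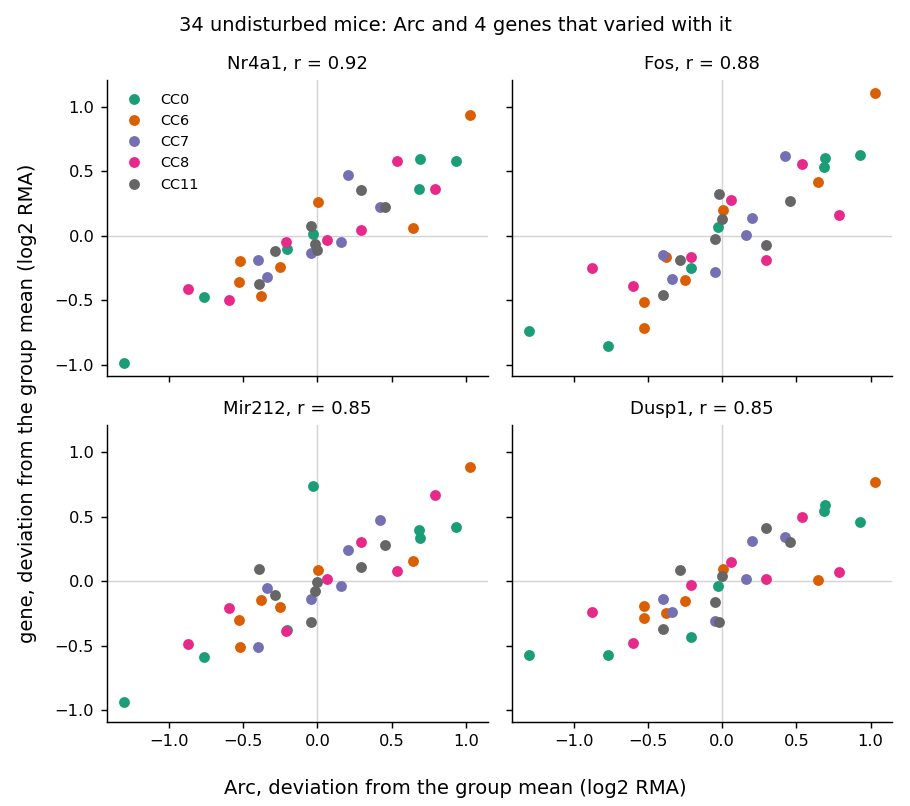
Deviation from the group mean of Nr4a1, Fos, Mir212 and Dusp1 (vertical axes) against that of Arc (horizontal axes) in 34 undisturbed mice, on the log2 RMA scale, coloured by group. In each panel mice with more Arc than their group have more of the other gene, with r from 0.85 to 0.92.

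Sequences are shown for the 4 genes nearest to Arc in undisturbed mice, since these are the genes whose probesets moved with it most closely. Both mature forms of mouse miR-212 (RefSeq, GRCm38.p6, plus strand of chromosome 11, 75173403 to 75173425 and 75173443 to 75173464) are printed 5′ to 3′ with the seed, bases 2 to 8, in capitals. The array's Mir212 probeset is mapped to the gene and does not tell the forms apart. Its values are not a measure of either mature form.
mmu-miR-212-5p: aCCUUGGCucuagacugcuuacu
mmu-miR-212-3p: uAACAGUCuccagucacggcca

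For the protein-coding genes the 250 bases before the annotated start are shown (RefSeq, GRCm38.p6), on the strand of the gene. Capitals mark TGACG or its reverse complement CGTCA, the core of the cAMP response element to which CREB binds; the full element is TGACGTCA, which contains both. The windows are chr15:101266596-101266845 on the plus strand for Nr4a1, chr12:85473640-85473889 on the plus strand for Fos and chr17:26508473-26508722 on the minus strand for Dusp1.
Nr4a1: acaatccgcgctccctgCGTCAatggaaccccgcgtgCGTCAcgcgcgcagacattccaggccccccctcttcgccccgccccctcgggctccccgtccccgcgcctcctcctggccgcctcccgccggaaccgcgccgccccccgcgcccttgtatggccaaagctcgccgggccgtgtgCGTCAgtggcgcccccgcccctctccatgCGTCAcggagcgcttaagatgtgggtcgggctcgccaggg
Fos: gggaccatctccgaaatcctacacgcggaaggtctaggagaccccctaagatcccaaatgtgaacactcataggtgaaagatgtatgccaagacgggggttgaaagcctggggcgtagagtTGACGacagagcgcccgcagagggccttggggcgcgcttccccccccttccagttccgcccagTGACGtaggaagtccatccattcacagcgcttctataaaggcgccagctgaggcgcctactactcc
Dusp1: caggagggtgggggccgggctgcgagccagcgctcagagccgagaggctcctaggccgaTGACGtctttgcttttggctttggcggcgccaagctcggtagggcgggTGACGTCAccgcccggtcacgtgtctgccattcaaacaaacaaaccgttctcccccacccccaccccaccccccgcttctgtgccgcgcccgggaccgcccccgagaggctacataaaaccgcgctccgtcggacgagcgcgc

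The Nr4a1 window holds the 5-letter core 4 times, the Fos window 2 times and the Dusp1 window 3 times, of which 2 overlap in its full element. Of all 32851 windows of this length in the table, 17.8% hold the core on either strand and 1.55% the full element. By gene, 19.8% of the 27025 genes in the table hold the core in at least 1 window. Of the 10 genes that varied most with Arc in undisturbed mice, 6 have an entry in the table, and all 6 hold the core in at least 1 window, although 2 of the 5 Egr2 windows do not. A match of letters is a description and says nothing of binding in these mice.

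The same 4 genes were then compared between groups, with the fitted values of the whole table. Nr4a1 had 9.64, 9.79 and 10.16 in SD (lowest, median, highest), against 8.35, 8.62 and 9.75 in CC6, with a log2 fold change of 0.90 (adjusted p = 0.0017, limma). Mir212 had 6.65, 7.01 and 7.88 in SD, against 5.48, 5.84 and 6.88 in CC6 (0.86, adjusted p = 0.0088). For both the groups overlapped by 1 or more mice, unlike for Arc. Fos had 6.33, 6.50 and 7.30 in SD, against 4.93, 5.48 and 6.75 in CC6, and its difference of 0.81 missed the threshold (adjusted p = 0.025). Dusp1 had 8.22, 8.50 and 8.96 in SD, against 7.75, 7.89 and 8.81 in CC6 (0.40, adjusted p = 0.21). Of the 10 genes that followed Arc from mouse to mouse, 5 were higher in SD than in CC6 and 0 lower, beside 1.09% of all probesets that were higher. Their median was 0.72, with a range of 0.04 to 0.90. Arc's 1.47 was the largest increase of all 32819 probesets, so any other gene had to lie below it.

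In recovery 0 of these 10 genes passed the test in RS2, RS3 or RS6 (limma), beside 0.299%, 0.171% and 0.149% of all probesets, so that 0 of 10 is near the background. At an unadjusted p under 0.05 there were 0, 1 and 1, the last 2 lower, beside 10.5%, 11.7% and 14.1% of all probesets. Their median log2 fold changes were -0.13, -0.07 and -0.26 in that order, beside -0.32, -0.30 and -0.34 for Arc. In CC6 against CC0, 3 of the 10 were lower (Nr4a1, Egr1 and Egr2) and 0 higher, beside 0.125% of all probesets that were lower, with a median of -0.73 beside -1.20 for Arc.

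A wider list of 44 other activity-regulated genes was measured in full. It was chosen from general knowledge, but with earlier results of these data known. Its counts are therefore a description and not an independent test. In SD, 24 of the 44 were higher than in CC6 and 0 lower (33 and 0 at an unadjusted p under 0.05, limma), and 20 did not pass, beside 1.09% of all probesets that passed as higher. The median log2 fold change was 0.47, against 0.00083 over all probesets, and 41 of 44 estimates were above 0. The largest was that of Cdkn1a (1.00), a cell cycle inhibitor. The transcription factors Egr1 (0.86), Egr2 (0.85), Egr3 (0.82), Fosb (0.80), Nr4a3 (0.59), Klf10 (0.76) and Fosl2 (0.66) passed, as did Egr4 (0.42). So did the signalling inhibitors Dusp5 (0.89), Dusp6 (0.71) and Spry4 (0.50). Secreted or synaptic proteins that passed were Inhba (0.84), a subunit of activin, Nptx2 (0.58), a pentraxin that gathers AMPA receptors, Bdnf (0.48), a growth factor of neurons, Vgf (0.48), a neuropeptide precursor, and Homer1 (0.56), a scaffold of the postsynaptic density. The others were Nr4a1 (0.90), Sik1 (0.75), Ptgs2 (0.70), Trib1 (0.64), Ier5 (0.45), Per1 (0.40) and Gadd45b (0.36). Estimates of Jun, Nr4a2, Rgs2, Btg2, Maff, Plk2 and Ier2 lay between -0.09 and 0.04 and did not pass.

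In recovery some members of the list passed as higher than in undisturbed mice, while Arc did not pass. In RS2, 8 of 44 were higher than in CC8: Egr3 (0.78), Cdkn1a (0.75), Inhba (0.68), Nptx2 (0.61), Bdnf (0.53), Fosl2 (0.53), Ptgs2 (0.48) and Vgf (0.43), beside 0.232% of all probesets. Per1, a clock gene, was lower (-0.46, beside 0.067% of all probesets), and the median of the list was 0.06. In RS3, 4 were higher: Egr3 (0.70), Nptx2 (0.50), Bdnf (0.40) and Vgf (0.32), beside 0.11% of all probesets, and the median was -0.01. In RS6, 2 were higher, Nptx2 (0.44) and Nrn1 (0.24), beside 0.119% of all probesets, with a median of -0.03. Arc was in none of these sets, and whether it differed from these genes within a comparison was not tested. Without RUV the counts in RS2, RS3 and RS6 were 2, 2 and 0, while that in SD was 25. In RS2, leaving out the mice numbered 1 gave 5.

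**Figure D5:**
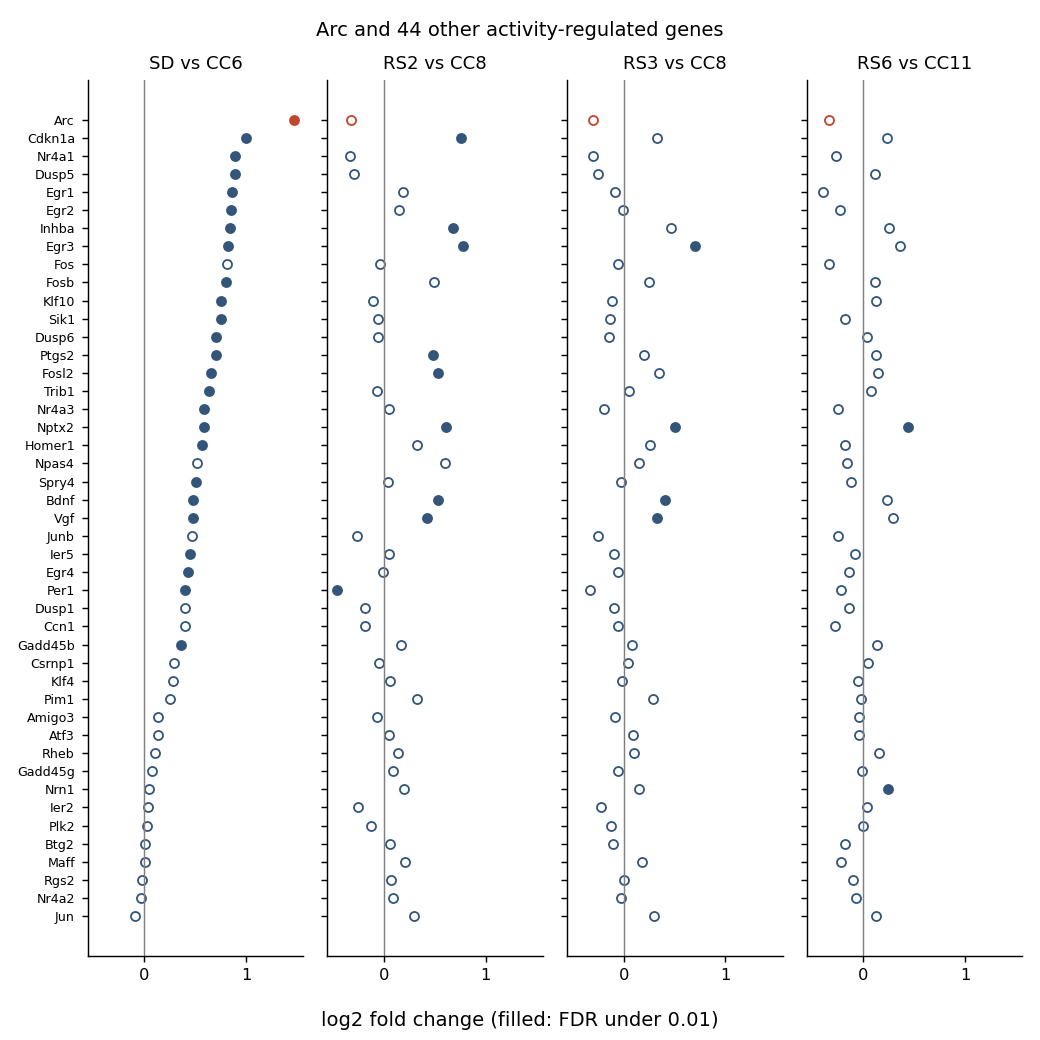
Log2 fold change of Arc (red) and of 44 other activity-regulated genes (blue) in SD against CC6, RS2 and RS3 against CC8 and RS6 against CC11, sorted by the first comparison; filled circles passed an FDR under 0.01. Arc, which had the largest increase of all probesets in SD, is the farthest right there. It lies left of 0 in the 3 recovery comparisons, where 8, 4 and 2 of the other genes were higher.

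Over the light phase, 10 of the 44 genes were lower in CC6 than in CC0 and 0 higher (30 and 0 at an unadjusted p under 0.05, limma), beside 0.125% of all probesets. They were Nr4a1 (-0.97), Egr1 (-0.94), Egr2 (-0.82), Nr4a3 (-0.64), Klf10 (-0.55), Dusp6 (-0.54), Dusp5 (-0.49), Fosl2 (-0.48), Spry4 (-0.46) and Homer1 (-0.41). The median of the list was -0.31. Arc, at -1.20, ranked 2 of all 32819 probesets by decrease, so almost any list would lie above it. Fos (-0.97, adjusted p = 0.022) and Npas4 (-0.54, adjusted p = 0.11), which encode transcription factors induced by neuronal activity, did not pass.

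Genes that act on Arc or are related to it were also measured, in 5 lists. In SD against CC6, 1.93% of all probesets passed in either direction and 15.9% had an unadjusted p under 0.05. With 5 to 22 genes a list, 0 or 1 that pass is near the background and is not a result about the list. The counts at an unadjusted p under 0.05 were above the 15.9% share in each list, although 1 of 5 for protein turnover is close to it. Whether a list exceeded this share was not tested. Of 22 kinases, receptors and transcription factors upstream of Arc transcription (Creb1, Mef2c, Srf and others), 0 passed in SD (10 at an unadjusted p under 0.05, limma), with estimates from -0.20 to 0.16. Of 10 genes of Arc mRNA handling, 0 passed in SD (4 at an unadjusted p under 0.05) and 1 in RS3, Upf2 (0.23, higher), which takes part in nonsense-mediated decay and did not pass without RUV (adjusted p = 0.92). Of 22 partners of Arc protein and subunits of AMPA receptors or their endocytosis, 1 was higher in SD, Baiap2 (0.23), which encodes an actin-regulating scaffold of synapses, and 8 had an unadjusted p under 0.05. Of 5 genes of Arc protein turnover, such as Ube3a, 0 passed in SD (1 at an unadjusted p under 0.05). Of 12 other genes that derive from Gag proteins, 1 was lower in SD, Pnma3 (-0.36), which did not pass without RUV (adjusted p = 0.011), and 5 had an unadjusted p under 0.05.

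The neighbours of Arc on the chromosome were looked at as well. Of the 5 nearest measured protein-coding genes on either side (Gpr20, Ptp4a3, Mroh5, Adgrb1 and Mroh4, and Them6, Slurp1, Lypd2, Slurp2 and Lynx1), 0 passed in SD, in the 3 recovery comparisons or in CC6 and CC11 against CC0, and 1 or 2 had an unadjusted p under 0.05 in each (limma). Over all probesets 1.93% passed in SD and 0.149% to 0.975% in the others, and 9.49% to 15.9% had an unadjusted p under 0.05, so that these counts are near the background. Their estimates in SD lay between -0.11 and 0.22, beside 1.47 for Arc. The nearest to the threshold in SD was Ptp4a3, a phosphatase gene, at 0.20 (adjusted p = 0.020).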

How the data were processed

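The deposited values are log2 intensities per probeset that the authors obtained by RMA, and whether RUV, which removes unwanted variation, had already been applied is not stated. RMA pulls arrays to one distribution, so that levels are relative within the set and are not compared between genes. The filter required a log2 value above 4 in over 50% of the 59 arrays, which 32819 probesets met. RUVs was written out in R 4.3.3 with 6 factors, the groups as replicate sets and all kept probesets as controls, and limma 3.58.1 was fitted once with 9 groups and these factors. P-values were adjusted by Benjamini and Hochberg over all kept probesets at an FDR under 0.01. The fit was tested on simulated data. Exact permutation tests used scipy 1.17.1 on RMA values. Arc, the gene lists and the tests were chosen with earlier results of these data known. Genes like Arc were named by rule: the 10 highest and 3 lowest correlations. List members past the threshold and 5 neighbours on each side were named as well. The number of mice sets the precision. Recovery sleep of 1 h was not analysed here, and 1 array with conflicting labels entered no comparison. The alternatives were other filters, normalizations and numbers of RUV factors, no RUV, array weights, a trend, a block, pairs alone without RUV, and fewer arrays. Leaving out the mice numbered 1, the block without RUV, the 5 arrays left out without RUV, and RUV factors estimated without the activity-regulated genes were chosen after seeing the data.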

Additional observations from a re-analysis of the deposited data

Results flagged for a closer look

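The RS3 effect on Arc differed from that of sleep deprivation, by -1.77 on the log2 scale (RS3 against CC8 minus SD against CC6). So did the RS6 effect, by -1.80 (RS6 against CC11 minus SD against CC6). Each was past an FDR under 0.01 in limma. RS3 and RS6 mice had been kept awake for 5 h and SD mice for 6 h, so recovery and length of deprivation cannot be told apart here. Among 45 sets of values, Arc and its 4 nearest genes in 9 groups, a mouse stood far from the rest of its group in 3, where chance gives about 1 in 20. SD mouse 1 was highest for Nr4a1 (10.16, next 9.86) and for Fos (7.30, next 6.67), and its array is 1 of the 5 that stand apart. CC6 mouse 3 was highest for Dusp1 (8.81, next 8.13), and was also the highest CC6 mouse for Arc (9.71). For Arc itself no mouse of any group stood apart by this measure.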

How the results depend on the processing

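Arc was compared in 16 ways under 281 alternative settings in all, of which 260 kept the direction and the side of the threshold. SD against CC6 passed in all 17 of its settings (1.39 to 1.72, highest adjusted p 0.0050), as did RS6 minus SD in all 16 of its own and the 3 recovery groups against SD, and the 3 recovery groups against their undisturbed groups passed in none. CC6 against CC0 lost its call with no filter (-1.21, adjusted p = 0.0107), without RUV (-1.22, 0.035), with array weights (-1.24, 0.0177), with the replicate number as a block (-1.21, 0.0185, and without RUV -1.22, 0.0283), without the 5 arrays (-1.24, 0.0112, and without RUV -1.22, 0.032), in the pair of groups alone without RUV (-1.22, 0.94) and in the exact permutation test (-1.22, p = 0.0134). The pairs alone without RUV, which change both the mice in the fit and the factors, also lost the call of CC7 (-1.45, 0.41), CC8 (-1.44, 0.36) and CC11 (-1.51, 0.0898) against CC0, all of which passed without RUV in the fit of 9 groups, and the block lost that of CC11 (-1.33, 0.0110). RS3 minus SD lost its call with 3 RUV factors (-1.70, 0.0102), the block (-1.77, 0.0172), without the 5 arrays (-1.62, 0.0248, and without RUV -1.65, 0.0518) and in the compared groups alone without RUV (-1.96, 0.0226). RS2 minus SD gained it with the RUV factors subtracted beforehand (-1.79, 0.0042) and with the block without RUV (-2.10, 0.0072). CC11 against CC6 turned to 0.023 (adjusted p = 0.99) without the mice numbered 1. The cause was not tested. Without each RS2 mouse in turn, RS2 against CC8 was -0.39 to -0.26, RS2 against SD -2.02 to -1.89, and RS2 minus SD -1.86 to -1.73.

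The authors state that the protocol was run daily, with 1 mouse for each time point on a day. The labels do not say whether the replicate number marks that day. Replicate numbers were therefore not taken as a pairing in the main fit. The correlation of same-numbered deviations had medians of -0.02 to 0.05 over the 4 time-matched comparisons. These medians do not show whether Arc differed by day, and the calls of Arc that the block lost are given above. With the block, 22 in place of 24 activity-regulated genes were higher in SD. For RS2 their number was 2 without RUV and 5 without the mice numbered 1, for RS3 2 without RUV, and for RS6 0 without RUV and 1 with 3 factors. Of 18 alternative group means of Arc, 17 moved by less than 1 SD, and CC11 was 8.71 with the RUV factors subtracted. All 46 alternative correlations stayed within the 95% interval of the main ones. The number of mice, 4 in RS2 above all, limits what these comparisons could detect.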

Other observations

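The array that was left out carries labels that name different recovery times, and its log2 value of Arc was 8.41. Mice numbered 1 had a mean deviation of 0.40 from their group means of Arc over the 9 groups, and 6 of 9 were above their group mean. Among them are mouse 1 of SD, CC0, RS6 and CC8, whose arrays stand apart.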
